A study of Ictalurus furcatus with 16 samples.

Results

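This account concerns 3 blue catfish testes in which gsdf was highest, set against the other 13 testes of the same study. Gsdf (gonadal soma-derived factor) is a secreted member of the TGF-beta family that supporting Sertoli cells of the fish testis make. RNA was sequenced from the testis of 16 male blue catfish (Ictalurus furcatus), 4 fish at each of ages 2, 4, 7 and 9, for which the labels give no unit. The series names age 2 as its control, and the labels state no strain, genotype, treatment or sperm count. The members were chosen by a measured value: libraries with at least 1000 gsdf CPM (counts scaled to a fixed number of assigned fragments, on the plain library total) formed one set, called gsdf-high testes here. These were 3 of the 16 libraries, all of age 2 (replicates 2, 3 and 4). The other 13 were age 2 replicate 1 and the 12 libraries of ages 4, 7 and 9. Gsdf stood at 2625, 1925 and 6048 CPM in age 2 replicates 2, 3 and 4. Just inside the threshold was age 2 replicate 3 at 1925 CPM, and just outside it was age 9 replicate 4 at 496 CPM. The lowest library of all was the remaining age 2 testis, replicate 1, at 78.3 CPM. Because gsdf selected the libraries, gsdf is left out of the results, and no test was made: each difference below describes these libraries. Age 2 and high gsdf cannot be told apart in 3 of the 4 age 2 fish, since no older testis was in the gsdf-high set.

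In the fish testis, germ cells develop in cysts wrapped by Sertoli cells, starting from spermatogonia and passing through meiosis to spermatids and flagellated sperm. Leydig cells between the cysts make androgens, of which 11-ketotestosterone is the main one in many fishes. In trout and zebrafish gsdf is linked to early germ cells and Sertoli cells, and in many fishes the testis regrows its germ cells each season. In bulk RNA a lower value can come from fewer cells of a type or from less RNA per cell, and the files cannot tell these apart.

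Libraries held between 20541746 and 24732597 fragments, of which between 5136717 and 8081160 were assigned to a transcript. The share of fragments that fell on more than 1 feature was 22.8% to 24.8% in gsdf-high testes, against 25.8% to 29.4% in the others, and these ranges did not overlap. Fragments that mapped to several places made up 3.68% to 4.05% in gsdf-high testes and 4.15% to 5.61% in the others. Nuclear ribosomal RNA took 14.8% to 22.2% of assigned fragments in gsdf-high testes and 5.69% to 28.3% in the others, with age 2 replicate 1 the highest of all. With every library thinned to 5000000 assigned fragments, 20041 to 20540 genes were detected in gsdf-high testes and 18747 to 20075 in the others. The part of these library measures in the differences below was not tested.

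Values from here on are CPM scaled by the trimmed mean of M-values (TMM), and the 3 values of gsdf-high testes are always given for age 2 replicates 2, 3 and 4 in that order. A gene is called separated when the 3 libraries and the 13 do not overlap and their mean log2 CPM differ by at least 1. Differences are gsdf-high minus the others. Of 15978 genes kept, 2232 (14.0%) were separated and higher in gsdf-high testes and 1919 (12%) were separated and lower. No overlap alone, without a limit on size, held for 2666 higher genes (16.7%) and 2518 lower genes (15.8%). The median difference over all genes kept was 0.07. Large differences were more often on the lower side: 169 genes were lower by a log2 difference of 4 or more, and 9 were higher by as much. Among the lower genes, 14 had no count in any gsdf-high library, and none of the higher genes was without counts in the other 13. The latter was fixed in advance. The filter on low counts takes the 4 libraries of an age as a group, so it drops genes counted only in the 3 gsdf-high testes. It thus holds back the higher side more: with no filter, 2825 genes were separated and higher and 1952 separated and lower. The plot of all genes shows these counts against the mean level.

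**Figure D1:**
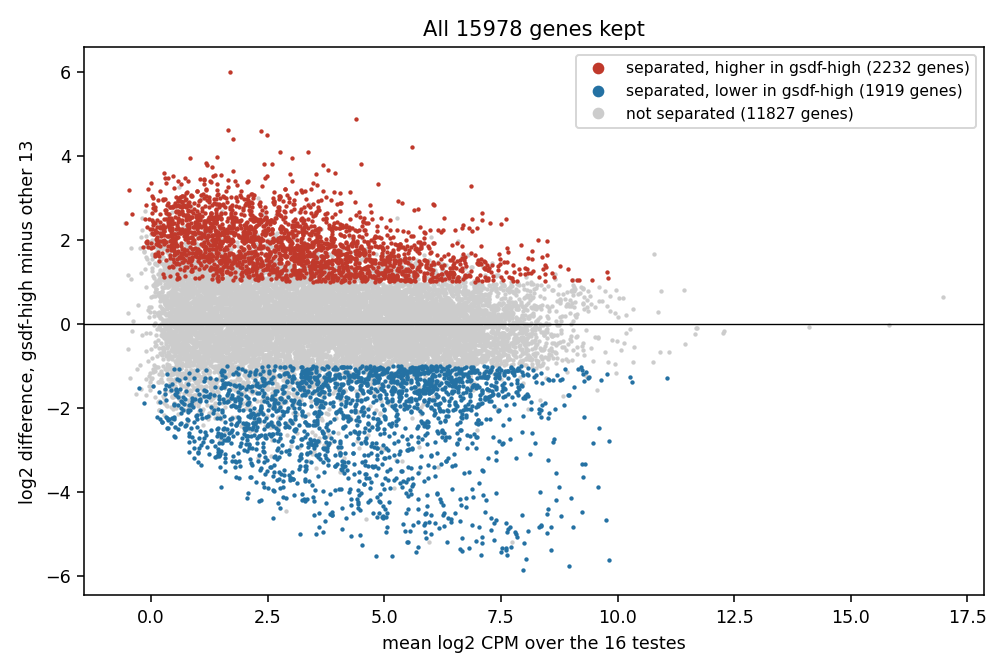
Each point is 1 of the 15978 genes kept, with its mean log2 CPM over 16 testes on the x axis and the log2 difference, gsdf-high (n = 3) minus the other 13 testes, on the y axis. Red points are the 2232 separated higher genes and blue points the 1919 separated lower genes; the lower side reaches beyond -5 at high mean levels.

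The 3 gsdf-high testes were closer to each other than to the rest. The mean absolute log2 distance over all genes from one of the 3 to the other two lay between 0.498 and 0.568, and their distance to the 12 older testes lay between 1.09 and 1.17. Age 2 replicate 1 was 1.19 from the gsdf-high testes and 0.692 from the 12 older ones. The median SD of log2 CPM per gene was 0.336 in gsdf-high testes, against 0.495 in the other 13. These SDs are not like for like, since the 3 are all of age 2 and the 13 span 4 ages. Within the 3, replicate 4, the library with the most gsdf, had the lowest value of 985 of the 1919 lower genes (51.3%). The highest value of the 2232 higher genes was in replicate 3 for 987 of them (44.2%), in replicate 4 for 666 (29.8%) and in replicate 2 for 579 (25.9%).

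Several genes of the flagellum were among the named genes with the largest lower values. Genes kept for the radial spokes and central pair, the core machinery that makes a sperm tail beat, numbered 33. Of these, 27 (81.8%) were separated and lower and 1 (iqca1, 3.03%) was separated and higher, with a median difference of -3.12. Over all genes kept the shares were 12% lower and 14.0% higher. The mean log2 CPM of the radial spoke and central pair list was 2.44, 2.32 and 1.55 in gsdf-high testes. It was 5.17 in age 2 replicate 1 and 4.13 to 6.02 in the 12 older testes. Its summed level was 225 to 384 CPM in gsdf-high testes, against 1634 to 9066 CPM in the others, so it was reduced in the 3 testes but present in all of them. Enkur, which encodes enkurin, a protein of sperm and motile cilia in mammals, was at 11.5, 10.2 and 1.5 CPM in gsdf-high testes, against 113 to 659 CPM (median 261) in the others. It averaged 7.73 ± 5.43 CPM in gsdf-high testes and 305 ± 147 CPM in the others (SD, n = 3 and n = 13), a log2 difference of -5.50. Meig1, needed for sperm tail formation in mice, was at 9.85, 7.85 and 1.0 CPM in gsdf-high testes and at 110.4 to 341 CPM (median 241) in the others. For both genes replicate 4 was the lowest of the 3, and the sets were far apart. Cfap161 and cfap61 belong to the cilia and flagella associated proteins, of which 13 of 14 kept were separated and lower. Cfap61, a radial spoke protein, was at 34.1, 41.4 and 10.3 CPM in gsdf-high testes, against 265 to 1470.2 CPM (median 788) in the others. Cfap161 was at 7.35, 4.07 and 1.33 CPM in gsdf-high testes and at 51.1 to 276 CPM (median 125) in the others.

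Dynein genes, the motors of the axoneme, were mixed by subunit. Of 25 dynein and dynein assembly genes kept, 13 were separated and lower and 3 were separated and higher (median difference -1.47). The lower share was 52%, against 12% of all genes kept, and the higher share 12%, against 14.0%. Zmynd10, which helps to assemble dynein arms, was at 10.5, 9.01 and 2.67 CPM in gsdf-high testes and at 77.5 to 227 CPM (median 124) in the others. Odad3, part of the docking complex of the outer arms, was at 64.3, 46.4 and 18.3 CPM in gsdf-high testes, against 259.6 to 1643 CPM (median 669) in the others. Ccdc103 and dnaaf6, both needed for dynein arms, differed by -3.23 and -3.04. Among 10 dynein heavy chains, dnah6, dnah7 and dnah1 were separated and lower, whereas dnah9, dnah9l and dnah3 were separated and higher; these 6 were named after their values were seen. Dnah9l was at 53.4, 57.1 and 50.7 CPM in gsdf-high testes, against 9.72 to 17.7 CPM in the others. The heavy chains therefore did not share one direction.

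Genes of later germ cells were lower in part. Of 29 spermiogenesis and sperm genes kept, 14 (48.3%) were separated and lower and 1 (septin12, 3.45%) was separated and higher. Over all genes kept these shares were 12% and 14.0%. The list median was -1.74, or -0.79 with no filter on low counts. Odf2a, an outer dense fibre protein of the tail, was at 1.66, 0.872 and 1.0 CPM in gsdf-high testes and at 13.4 to 57.8 CPM (median 29.2) in the others. Spata4, one of the defining sperm markers, was at 7.49, 7.41 and 5.84 CPM in gsdf-high testes, against 43.8 to 279 CPM (median 137) in the others. The sperm marker spata18 had 1 count in the 3 gsdf-high libraries together and lay between 0.615 and 7.06 CPM in the others. Tekt1, a tektin of the tail, overlapped, at 4.58, 2.76 and 3.33 CPM in gsdf-high testes and 1.81 to 9.51 CPM in the others. Akap14 and spag8, both proteins of the sperm tail in mammals, differed by -4.22 and -3.72 without overlap. Odf3b had no count in any gsdf-high library and 2.92 ± 1.5 CPM in the others (SD, n = 13). Against a floor of 3 counts over the 3 libraries, it was at least 19.5-fold lower in gsdf-high testes; it too was named after its values were seen.

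Other named genes with large differences on the lower side stood mostly outside these lists. Armc3 and cfap119, linked to the sperm tail, and serinc1, a membrane protein, differed by -5.33, -5.16 and -5.32. Brwd3, a bromodomain protein, had 0.555, 0.291 and 0.00 CPM in gsdf-high testes, against 9.77 to 24.8 CPM in the others. Noto, a homeobox gene of the notochord that also acts on cilia in the mouse embryo, was at 3.05, 2.33 and 0.834 CPM in gsdf-high testes and at 28.6 to 136 CPM in the others. Mns1 and drc3, both proteins of flagella and members of the radial spoke and central pair list, each differed by -4.70. The uncharacterised genes LOC128610314 and LOC128621645 were lower by log2 differences of -5.87 and -5.77. All of these replicate 4 values were the lowest of the 3. In none of these genes did the sets overlap, as the choice of separated genes requires.

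On the higher side the named genes were of several kinds. Epha8, an Eph receptor tyrosine kinase, was at 78.5, 92.3 and 116 CPM in gsdf-high testes, against 0.306 to 3.45 CPM (median 1.33) in the others, a log2 difference of 5.99 and the largest of any named gene. Its 3 values were close together (95.7 ± 19.2 CPM, SD, n = 3), against 1.39 ± 0.922 CPM in the others (n = 13). Adgrb1a, an adhesion G protein-coupled receptor, averaged 192 ± 16.7 CPM in gsdf-high testes and 13.9 ± 3.80 CPM in the others. Kank1a, a regulator of the actin cytoskeleton, averaged 67.8 ± 5.16 CPM in gsdf-high testes and 3.93 ± 1.41 CPM in the others. Kif26aa, a kinesin-like protein, and pitpnc1a, a phosphatidylinositol transfer protein, differed by 4.10 and 3.94. Cxcr4a, a receptor for the chemokine Cxcl12, was at 12.9, 25.7 and 20.01 CPM in gsdf-high testes, against 0.320 to 3.58 CPM in the others. Cdh12a, a cadherin, and ppp2r2ca, a regulatory subunit of protein phosphatase 2A, differed by 3.98 and 3.75. The uncharacterised genes LOC128617821 and LOC128607891 were higher by 4.87 and 4.59. The plot of the 24 most different named genes shows each testis.

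**Figure D2:**
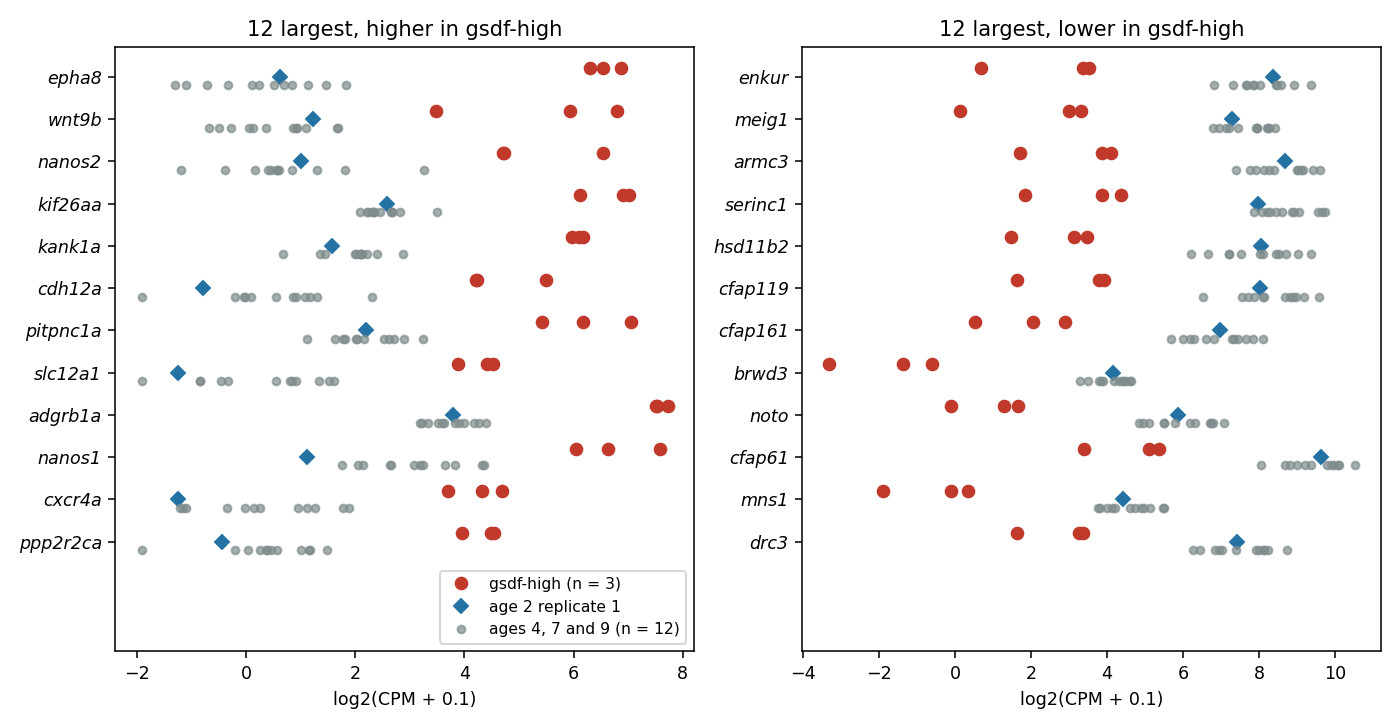
Points are single testes on a log2(CPM + 0.1) axis for the 12 genes with the largest separated differences in each direction, with gsdf-high testes (n = 3, red), age 2 replicate 1 (blue diamond) and ages 4, 7 and 9 (n = 12, grey) in rows from top to bottom. The red points stand clear of the others in each gene, as the choice of separated genes requires; on the lower side the leftmost red point is age 2 replicate 4.

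Markers of undifferentiated spermatogonia, the stem and early cells of the male germ line, were in part higher in gsdf-high testes. Of 21 genes kept, 8 (38.1%, against 14.0% of all genes kept) were separated and higher and none was separated and lower. The median difference was 1.02. The list mean was 4.55, 4.72 and 4.52 in gsdf-high testes, 3.49 in age 2 replicate 1 and 3.25 to 4.09 in the 12 older testes. Nanos2, an RNA-binding protein that keeps spermatogonial stem cells undifferentiated in mice, was at 92.8, 26.2 and 26.2 CPM in gsdf-high testes and at 0.341 to 9.45 CPM (median 1.38) in the others. Its mean was 48.4 ± 38.5 CPM in gsdf-high testes and 2.12 ± 2.33 CPM in the others, a wide spread that rests on replicate 2. Nanos1, from the same family, was at 98.5, 65.8 and 191 CPM in gsdf-high testes, against 2.08 to 20.4 CPM (median 8.34) in the others. Id4, a stem cell regulator in mice, averaged 8.57 ± 1.83 CPM in gsdf-high testes and 1.80 ± 0.754 CPM in the others. Ret, the signalling receptor for Gdnf, averaged 18.7 ± 5.69 CPM in gsdf-high testes and 4.6 ± 1.17 CPM in the others. Zbtb16a, known as Plzf in mammals, was at 269.7, 482 and 304 CPM in gsdf-high testes and reached 263 CPM in the others, so the gap was narrow. Gfra1b, one of the Gdnf co-receptors, went the other way with overlap, at 8.46, 8.14 and 8.5 CPM in gsdf-high testes and 6.87 to 77.4 CPM in the others. The spermatogonial list therefore held genes on both sides.

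Of 11 genes of the piRNA pathway and its RNA granules kept, 3 (27.3%) were separated and higher and none separated and lower. Over all genes kept the higher share was 14.0%. The list median was 1.07, or 0.23 over all members with counts when no filter was set. Rnf17, a Tudor domain protein of germ cells, was at 1011, 814 and 627 CPM in gsdf-high testes, against 80.3 to 236 CPM (median 142) in the others. Tdrd1, another Tudor protein, averaged 567 ± 162 CPM in gsdf-high testes and 103 ± 32.5 CPM in the others. Henmt1, which methylates the ends of piRNAs, averaged 39 ± 4.3 CPM in gsdf-high testes and 9.27 ± 2.13 CPM in the others. Piwil1, an Argonaute protein that binds piRNAs, went the other way, at 22.9, 20.2 and 15.3 CPM in gsdf-high testes and 29.6 to 49.2 CPM in the others. Its sets did not overlap, but its difference of -0.97 was short of the limit of 1; it was named after its values were seen. Cpeb1b, a regulator of mRNA polyadenylation, overlapped, since the others reached 323 CPM. In rnf17 and tdrd1 replicate 2 was the highest of the 3 and replicate 4 the lowest.

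Meiosis genes were lower or overlapped. Of 23 genes kept, 7 (30.4%, against 12% of all genes kept) were separated and lower and none separated and higher. The list median was -0.13, or -0.42 without age 2 replicate 2 and -0.07 without age 2 replicate 4. Dmc1, the recombinase of meiotic crossovers, was at 24.8, 18.5 and 9.00 CPM in gsdf-high testes, against 58.2 to 147 CPM (median 77.7) in the others. Sycp1, which bridges paired chromosomes, was at 146, 104.05 and 57.0 CPM in gsdf-high testes and at 167 to 527 CPM (median 301) in the others. Cntd1, needed for crossovers in mice, and sgo2, which protects cohesion, differed by -1.93 and -1.87 without overlap, the last on 5 counts in the 3 libraries. The other defining markers overlapped: spo11, which makes the breaks that start recombination, was at 29.8, 18.6 and 12.7 CPM in gsdf-high testes and 12 to 50.004 CPM in the others, and sycp3 and hormad1 differed by -0.13 and -1.15. Meiotic transcripts were therefore present in all 3 gsdf-high testes, and the highest dmc1 and sycp1 of all 16 were in age 2 replicate 1.

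Cell division genes lay on both sides. Of 53 mitotic cell cycle genes kept, 15 (28.3%) were separated and lower and 5 (9.43%) separated and higher. Over all genes kept these shares were 12% and 14.0%. The list median was -0.09, or 0.03 without age 2 replicate 3 and 0.01 without age 4 replicate 4. The lower ones included ccna2 (cyclin A), at 58.1, 38.1 and 70.4 CPM in gsdf-high testes and 146 to 319.9 CPM in the others. Cdc20, an activator of the anaphase-promoting complex, averaged 21.0 ± 8.46 CPM in gsdf-high testes and 78.6 ± 18.2 CPM in the others. Incenp, a centromere protein, differed by -2.22 on 7 counts in the 3 libraries. The higher ones were cdk6, cdk4, ccnd1, ccnd2b and mcm2, which act at entry into the cycle or at the start of replication; all but cdk6 were named after their values were seen. Cdk6 was at 238, 191 and 354 CPM in gsdf-high testes, against 31.8 to 91.5 CPM (median 59.2) in the others. Of 13 kept genes for D-type cyclins, their kinases and MCM proteins (mcm10 included), 12 differed in the positive direction. This group holds all 5 higher genes of the list, so neither its count of 5 separated nor its 12 positive differences are a further result. Some of the 12 were small and overlapped, such as mcm10 and mcm4 at 0.14 and 0.25. The germ cell lists are drawn gene by gene in the plot of list members.

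**Figure D3:**
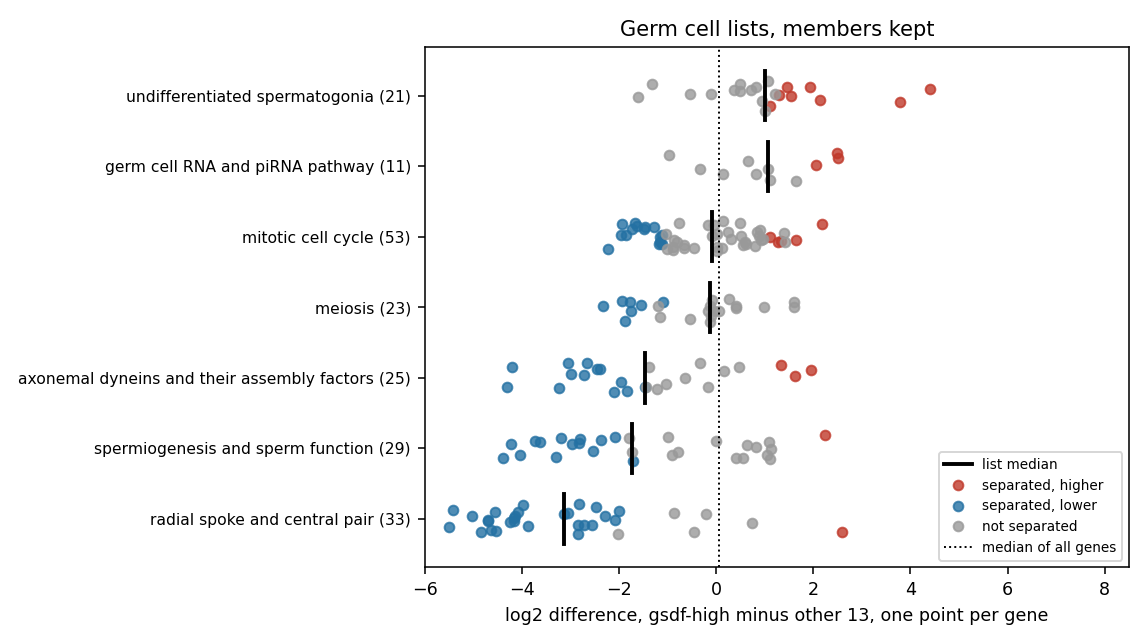
Each point is a gene kept from 1 of 7 germ cell lists, placed by its log2 difference (gsdf-high, n = 3, minus the other 13 testes); red and blue mark separated genes, grey the rest, black bars the list medians and the dotted line the median of all genes (0.07). Medians run from 1.02 and 1.07 for spermatogonial and piRNA genes to -3.12 for the radial spoke and central pair genes.

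A few genes of Leydig cells were lower. Of 11 steroid synthesis and Leydig genes kept, hsd11b2, insl3 and hsd17b1 were separated and lower and srd5a1 was separated and higher. The lower share was 27.3%, against 12% of all genes kept, and the higher share 9.09%, against 14.0%. The list median was 0.39, or 0.24 without age 2 replicate 3. Hsd11b2, which in fishes takes part in making 11-ketotestosterone, was at 8.74, 11.04 and 2.67 CPM in gsdf-high testes and at 73.9 to 664 CPM (median 266) in the others. It averaged 7.48 ± 4.33 CPM in gsdf-high testes and 291 ± 172 CPM in the others (SD, n = 3 and n = 13), a log2 difference of -5.18, and age 2 replicate 1 was at the median of the 13. Insl3, a Leydig cell hormone that acts on germ cell differentiation in zebrafish, was at 26.8, 20.2 and 6.34 CPM in gsdf-high testes, against 36.6 to 1274 CPM (median 202) in the others. Its 12 older values spread widely, and age 2 replicate 1, at 52.9 CPM, lay near their low end. Hsd17b1, an oxidoreductase of sex steroids, had 5 counts in the 3 gsdf-high libraries together and lay between 0.697 and 19.9 CPM in the others. Srd5a1, a steroid 5-alpha reductase, averaged 24.0 ± 5.61 CPM in gsdf-high testes and 6.76 ± 2.00 CPM in the others. Star, which brings cholesterol into mitochondria, overlapped, at 153, 122 and 202 CPM in gsdf-high testes and 20.03 to 215 CPM in the others. Hsd3b1, a later enzyme of the pathway, also overlapped and differed by 0.43. Leydig markers were thus present in gsdf-high testes, and the low values concerned named genes rather than the whole list. The symbols cyp11a1, cyp11a2 and cyp17a1 were not among those used here.

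Sertoli cell genes were higher or overlapped. Of 14 kept, without gsdf, 4 (28.6%, against 14.0% of all genes kept) were separated and higher and none separated and lower. The list median was 0.36, or 0.55 without age 2 replicate 2. Kitlgb and kitlga are the fish counterparts of the Kit ligand, a growth factor that acts on germ cells. Kitlgb was at 18.2, 23.7 and 20.7 CPM in gsdf-high testes, against 0.523 to 4.17 CPM (median 2.16) in the others. Kitlga averaged 48.1 ± 9.92 CPM in gsdf-high testes and 14.1 ± 6.28 CPM in the others. Sox9a, a transcription factor of testis differentiation, was at 20.7, 26.9 and 13.2 CPM in gsdf-high testes and at 2.00 to 9.61 CPM (median 2.96) in the others. Inha, the inhibin alpha subunit, averaged 2.66 ± 0.495 CPM in gsdf-high testes and 1.02 ± 0.625 CPM in the others. The classical Sertoli markers overlapped: amh, the anti-Mullerian hormone, was at 119.8, 186 and 219 CPM in gsdf-high testes and at 29.1 to 287 CPM in the others. Fshr, the receptor for follicle-stimulating hormone, was at 229, 406 and 469 CPM in gsdf-high testes, against 109.8 to 286 CPM in the others, with replicate 2 inside their range. Cldn11a, a tight junction protein of Sertoli cells, differed by 0.45 with overlap, and dmrt1 was listed at 0 in every library. A difference shared by all Sertoli markers was therefore not seen. The plot of somatic and signalling genes shows each testis.

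**Figure D4:**
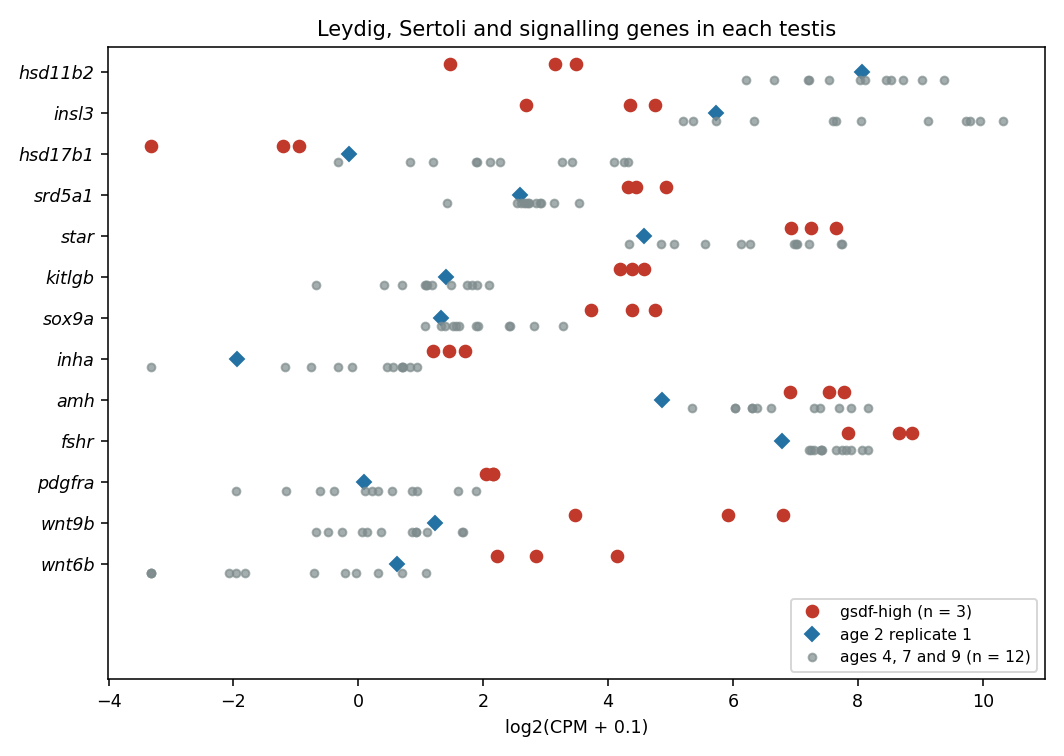
Single testes on a log2(CPM + 0.1) axis for 13 Leydig, Sertoli and signalling genes, with gsdf-high testes (n = 3, red) above age 2 replicate 1 (blue diamond) and ages 4, 7 and 9 (n = 12, grey). Red points lie left of the others for hsd11b2, insl3 and hsd17b1, right of them for kitlgb, sox9a and the Wnt genes, and among them for star and amh.

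Some growth factor and signalling genes were higher. Of 37 Wnt pathway genes kept, 10 (27.0%) were separated and higher and 1 (fzd8a, 2.7%) separated and lower, with a median difference of 0.98. Over all genes kept these shares were 14.0% and 12%. Among 14 Wnt ligands 7 were separated and higher. Wnt9b was at 60.7, 111 and 11 CPM in gsdf-high testes, against 0.523 to 3.10 CPM (median 1.70) in the others. Its values spread widely among the 3, with replicate 4 the lowest. Wnt6b was at 4.58, 7.12 and 17.5 CPM in gsdf-high testes, against 0.00 to 2.03 CPM in the others. Wnt7bb and wnt11 differed by 2.68 and 2.16. The list mean was 3.50, 3.65 and 3.76 in gsdf-high testes, 2.71 in age 2 replicate 1 and 2.54 to 2.92 in the 12 older testes.

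In the TGF-beta, BMP and activin list, 5 of 38 genes kept were separated and higher and 4 separated and lower (median difference 0.68, or 0.45 with no filter on low counts and 0.38 with at least 5 CPM in 3 libraries). These are 13.2% and 10.5% of the list, near the 14.0% and 12% over all genes kept. Acvr1ba, an activin receptor, averaged 113 ± 44.1 CPM in gsdf-high testes and 22.5 ± 8.95 CPM in the others. Bmp2a, a bone morphogenetic protein ligand, averaged 7.33 ± 4.51 CPM in gsdf-high testes and 1.21 ± 0.581 CPM in the others. The ligands gdf11 and inhbab, an activin subunit, were lower, at 23.1 ± 5.32 and 24.2 ± 9.75 CPM in gsdf-high testes, against 100.8 ± 34.8 and 101 ± 40.2 CPM in the others.

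Of 46 growth factor genes of the IGF, FGF, PDGF, VEGF and EGF families kept, 13 (28.3%, against 14.0% of all genes kept) were separated and higher. On the lower side 1 (fgf18a, 2.17%, against 12%) was separated, and the list median was 0.89. Fgf2, a fibroblast growth factor, was at 163, 173 and 179 CPM in gsdf-high testes, against 21.8 to 93.8 CPM (median 49.4) in the others. Igfbp2a, which binds insulin-like growth factors, averaged 54.3 ± 16.0 CPM in gsdf-high testes and 10.7 ± 4.3 CPM in the others. Vegfaa, a factor for blood vessels, differed by 2.08 without overlap, whereas igfbp7 differed by 2.04 and overlapped.

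Of 17 hormone receptor genes kept, 5 (29.4%, against 14.0% of all genes kept) were separated and higher and none separated and lower. Their median difference over the list was 0.99. Prlrb and ghrb, receptors for prolactin and growth hormone, differed by 2.2 and 1.62 without overlap. Nr3c2, the mineralocorticoid receptor, differed by 1.92 and overlapped. In the retinoic acid list, 5 of 19 genes kept (26.3%) were separated and higher and 1 (rbp4, 5.26%) separated and lower. Over all genes kept these shares were 14.0% and 12%. The list median was 0.48, 1.05 without age 2 replicate 2 and 0.27 without age 2 replicate 4. Rarab, a retinoic acid receptor, averaged 192 ± 15 CPM in gsdf-high testes and 65.2 ± 19.6 CPM in the others. Crabp2a, which carries retinoic acid in the cell, averaged 23.2 ± 2.62 CPM in gsdf-high testes and 6.75 ± 2.42 CPM in the others. Rxraa, a partner of these receptors, averaged 104.6 ± 18.8 CPM in gsdf-high testes and 41.2 ± 17.6 CPM in the others. Crabp1a, a second binding protein, spread from 0.517 to 122 CPM in the others and overlapped.

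Of 60 collagen, laminin and other extracellular matrix genes kept, 17 (28.3%, against 14.0% of all genes kept) were separated and higher. On the lower side 3 (5%, against 12%) were separated, and the list median was 0.93. The summed level of the list was 6772 to 16194 CPM in gsdf-high testes and 3510.1 to 6791 CPM in the others, so the ranges overlapped slightly. Spock1, a proteoglycan, was at 72.1, 45.5 and 58.5 CPM in gsdf-high testes, against 3.92 to 13.8 CPM (median 5.49) in the others. Spon1a, a spondin, averaged 25.5 ± 1.80 CPM in gsdf-high testes and 3.11 ± 1.58 CPM in the others. Col27a1a, a fibrillar collagen, averaged 77.9 ± 33.0 CPM in gsdf-high testes and 9.41 ± 3.57 CPM in the others. Of 6 collagen IV chains, the network of basement membranes, 4 were separated and higher (median difference 2.25). Tnn, a tenascin, went the other way, at 1.11, 0.436 and 1.67 CPM in gsdf-high testes and 2.03 to 103 CPM in the others.

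Among 36 junction genes kept, 7 (19.4%) were separated and higher and 2 (5.56%) separated and lower, against 14.0% and 12% of all genes kept. The median difference was 0.78, or 0.38 without age 2 replicate 4 and 0.46 with no filter. Cdh2, N-cadherin, was at 219.8, 185 and 193 CPM in gsdf-high testes, against 24.6 to 76.0 CPM (median 42.4) in the others. Jam3a, a junctional adhesion molecule, averaged 25.7 ± 11.5 CPM in gsdf-high testes and 134 ± 43.7 CPM in the others. Ctnna2, an alpha-catenin, averaged 13.6 ± 2.1 CPM in gsdf-high testes and 3.31 ± 1.01 CPM in the others.

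Genes that every cell uses lay on both sides. Of 43 proteasome genes kept, 17 (39.5%, against 12% of all genes kept) were separated and lower and none higher (median difference -0.86). Among the lower ones were 8 of 17 core subunits and 8 of 19 genes grouped with the regulatory subunits, psmd10 among them. Psmd10, a regulatory-particle assembly chaperone, averaged 16.6 ± 2.29 CPM in gsdf-high testes and 69.5 ± 19.6 CPM in the others. Psmb3, psmb1 and psmd12, subunits of the proteasome, differed by -1.63, -1.56 and -1.46. Of 56 nuclear genes of oxidative phosphorylation kept, 19 (33.9%, against 12% of all genes kept) were separated and lower and none higher. Among the lower ones were 13 of 39 genes grouped under complex I, ndufa4b among them, and the list median was -0.81. Not every gene of that group need be a subunit of complex I. Ndufa10, a complex I subunit, averaged 32.2 ± 3.06 CPM in gsdf-high testes and 96.0 ± 10.8 CPM in the others. Ndufa4b and ndufa6 differed by -2.95 and -1.52, and sdhdb, of complex II, by -1.68 on 5 counts in the 3 libraries. By contrast, 73 of 76 cytosolic ribosomal protein genes kept had a positive difference, with a median of 0.77. Only 6 of these 76 (7.89%, against 14.0% of all genes kept) were separated and higher, since most differed by less than 1 or overlapped. Rpl15 was at 1841, 1343 and 1741 CPM in gsdf-high testes, against 529.9 to 1198 CPM in the others. Rpl5a and rpl37 each differed by 1.12, and rps27l, related to a small-subunit protein, went the other way by -1.17 with overlap.

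All separated genes of the interferon, macrophage and lymphocyte lists were lower. In the interferon list their share was near that of all genes kept. Of 21 interferon response genes kept, 3 (14.3%, against 12% of all genes kept) were separated and lower and none higher, with a median difference of -1.05. The list mean was 4.21, 4.39 and 3.86 in gsdf-high testes and 3.81 in age 2 replicate 1, against 4.04 to 6.88 in the 12 older testes. By age, its median was 5.07 at age 4, 5.38 at age 7 and 6.29 at age 9. Mxa, an antiviral GTPase, was at 12.2, 15.3 and 7.84 CPM in gsdf-high testes, against 16.1 to 364 CPM (median 93.0) in the others, of which age 2 replicate 1 was the lowest. Ifit8, isg15 and cmpk2, which interferon induces, differed by -3.42, -2.95 and -2.78, and all overlapped. Isg15 was at 3.88, 8.86 and 4.50 CPM in gsdf-high testes and at 5.60 CPM in age 2 replicate 1, with a median of 66.6 CPM over the other 13.

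Of 15 macrophage and myeloid genes kept, 3 were separated and lower and none higher (median difference -0.81). The lower share was 20%, against 12% of all genes kept. The list mean was 3.09, 3.48 and 3.35 in gsdf-high testes, 3.03 in age 2 replicate 1 and 3.60 to 5.27 in the 12 older testes. Their summed level was 572 to 643 CPM in gsdf-high testes and 507 to 2066 CPM in the others. Lcp1, an actin-bundling protein of white blood cells, averaged 1.04 ± 0.0586 CPM in gsdf-high testes and 15.4 ± 7.71 CPM in the others. Marco, a scavenger receptor of macrophages, was at 0.832, 2.91 and 3.0 CPM in gsdf-high testes, against 3.89 to 34.4 CPM (median 13.8) in the others. Csf3r, a receptor of granulocytes, differed by -1.58 without overlap. The other defining markers overlapped: c1qb and mpeg1.1 differed by -1.29 and -0.81. Among 7 lymphocyte genes only rag2 was separated, on the lower side (14.3%, against 12% of all genes kept). Rag2 was at 0.555, 0.581 and 0.5 CPM in gsdf-high testes and 3.10 to 9.25 CPM in the others. Cd79a and cd8a overlapped, and lck and foxp3b differed by -1.24 and 0.98 with overlap. Their summed level was 129 to 206 CPM in gsdf-high testes and 60.6 to 168 CPM in the others.

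Other cell types of the testis and its surroundings gave mixed values. Of 12 nerve and glia genes kept, 5 (41.7%, against 14.0% of all genes kept) were separated and higher, all of them neuronal. The list median was 1.60, or 1.25 where 5 CPM in 3 libraries were required and 2.00 with no filter. The summed level of the list was 111 to 135 CPM in gsdf-high testes, against 28.8 to 61.2 CPM in the others. Stmn2b, a neuronal stathmin, averaged 36.8 ± 4.87 CPM in gsdf-high testes and 4.58 ± 2.04 CPM in the others. Th, which makes dopamine precursors, averaged 4.23 ± 0.113 CPM in gsdf-high testes and 0.438 ± 0.492 CPM in the others. Elavl4, a neuronal RNA-binding protein, differed by 2.55 without overlap, and s100b, a glial gene, by 2.87 with overlap. No glial gene was separated: mbpa, sox10, gfap and plp1a overlapped with positive differences, and mpz overlapped at -1.51. Those glial genes other than s100b were named after their values were seen.

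Smooth muscle and peritubular genes gave 2 separated and higher genes of 16 kept, pdgfrb and pdgfra, and none lower. These are 12.5% of the list, near the 14.0% over all genes kept. The list median was -0.33, from -0.63 without age 2 replicate 4 to -0.06 without age 2 replicate 2. Pdgfrb, a receptor for platelet-derived growth factor, was at 212, 260.4 and 499 CPM in gsdf-high testes and at 54.5 to 168 CPM in the others. Acta2, the smooth muscle actin, overlapped, at 1271, 1983 and 3809.9 CPM in gsdf-high testes and 1360 to 8073 CPM in the others. Myh11a and synpo2b, further muscle genes, differed by 2.21 and -1.82 and overlapped, and tagln and, for erythrocytes, slc4a1a were listed at 0 in every library. Summed smooth muscle level was 2399 to 6263 CPM in gsdf-high testes and 2295 to 13486 CPM in the others.

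The endothelial list had 1 separated and higher gene and 2 lower of 15 kept. These are 6.67% and 13.3% of the list, against 14.0% and 12% over all genes kept. The list median was 0.47, or 0.90 without age 2 replicate 2 and 0.09 without age 2 replicate 4. The summed level of the list was 424 to 1098 CPM in gsdf-high testes and 383 to 1061 CPM in the others. Cldn5a, a tight junction protein of vessels, averaged 48.4 ± 17.7 CPM in gsdf-high testes and 11.4 ± 4.18 CPM in the others. Esama and egfl7, also of vessels, differed by -2.05 and -1.60, whereas cdh5, kdrl, tie1 and aplnra overlapped. No gene of 6 kept for erythrocytes was separated: epor, sptb, urod and rhag differed by 1.0, 0.39, 0.28 and 0.25. Alas2, an enzyme of haem synthesis in red cells that was below the filter, was at 3.74, 2.76 and 2.17 CPM in gsdf-high testes and at 0.17 to 1.47 CPM in the others. The summed erythrocyte level was 292 to 330.5 CPM in gsdf-high testes and 229 to 386 CPM in the others. Nor was any of 12 oocyte and ovary genes separated. The oocyte growth factors gdf9 and bmp15 were at 8.67 to 12.4 and 7.49 to 9.16 CPM in gsdf-high testes, against 2.01 to 15.5 and 2.09 to 8.65 CPM in the others, and figla, btg4, zar1 and zar1l overlapped.

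Genes of kidney, liver, pancreas and gut lay on both sides. Slc12a1, a salt transporter of the kidney, was at 23.0, 21.2 and 14.7 CPM in gsdf-high testes, against 0.166 to 2.96 CPM (median 1.36) in the others, a log2 difference of 3.83. Nphs1, another kidney marker, was separated and lower at 3.05 to 3.78 CPM in gsdf-high testes, against 7.65 to 35.6 CPM in the others. Slc12a3 was at 0.277, 0.581 and 0.667 CPM in gsdf-high testes and at up to 0.651 CPM in the others, and pax2a was at 1.45 to 3.0 CPM in gsdf-high testes and at up to 0.682 CPM in the others; both were below the filter on low counts. Fgb, fibrinogen of the liver, was at 3.20 to 6.93 CPM in gsdf-high testes, against 0.172 to 2.28 CPM in the others. Prss1, a trypsinogen, was lower, at 0.834 to 3.92 CPM in gsdf-high testes and 6.31 to 17.002 CPM in the others. The summed level of these 8 genes was 56.2 to 77.5 CPM in gsdf-high testes and 33.5 to 71.1 CPM in the others. The part of other tissue in the sampled pieces was not tested.

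Of 18 Hox genes kept, which mark position along the body, 16 had a positive difference (median 0.92). Only hoxc1a was separated and higher and only hoxd3a separated and lower. Each is 5.56% of the list, against 14.0% and 12% over all genes kept. Hoxd3a was at 1.11, 1.45 and 3.17 CPM in gsdf-high testes, against 12.1 to 52.4 CPM in the others. Hoxc1a averaged 4.42 ± 1.82 CPM in gsdf-high testes and 0.603 ± 0.427 CPM in the others. Hoxb4a and hoxb2a differed by 1.66 and 1.5 and overlapped. The list mean, 2.60 to 3.26 in gsdf-high testes and 0.973 in age 2 replicate 1, reached 3.18 in the 12 older testes.

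Age 2 replicate 1 was compared apart, since it shares the age of the gsdf-high testes and not their gsdf. Against the 12 older testes alone, 2274 genes (14.2%) were separated and higher in gsdf-high testes and 1958 (12.3%) separated and lower. Age 2 replicate 1 lay within the range of the 12 older testes for 1808 of the higher genes (79.5%) and for 1616 of the lower genes (82.5%). It reached the gsdf-high testes for 44 of the higher genes (1.93%) and 51 of the lower genes (2.60%), and lay between both ranges for 130 and 138. For 292 of the higher genes (12.8%) and 153 of the lower genes (7.81%) it lay beyond the older testes on the far side. The plot of list means shows this by list: age 2 replicate 1 was within the range of the older testes for sperm tail and oxidative phosphorylation genes and just above it for proteasome genes. It was below all 12 of them for lists that included nerve, Hox, macrophage, interferon and smooth muscle genes. For meiosis it was the highest of all 16 testes, at a list mean of 5.54, against 4.11 to 4.77 in gsdf-high testes and 4.25 to 5.29 in the 12 older testes.

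**Figure D5:**
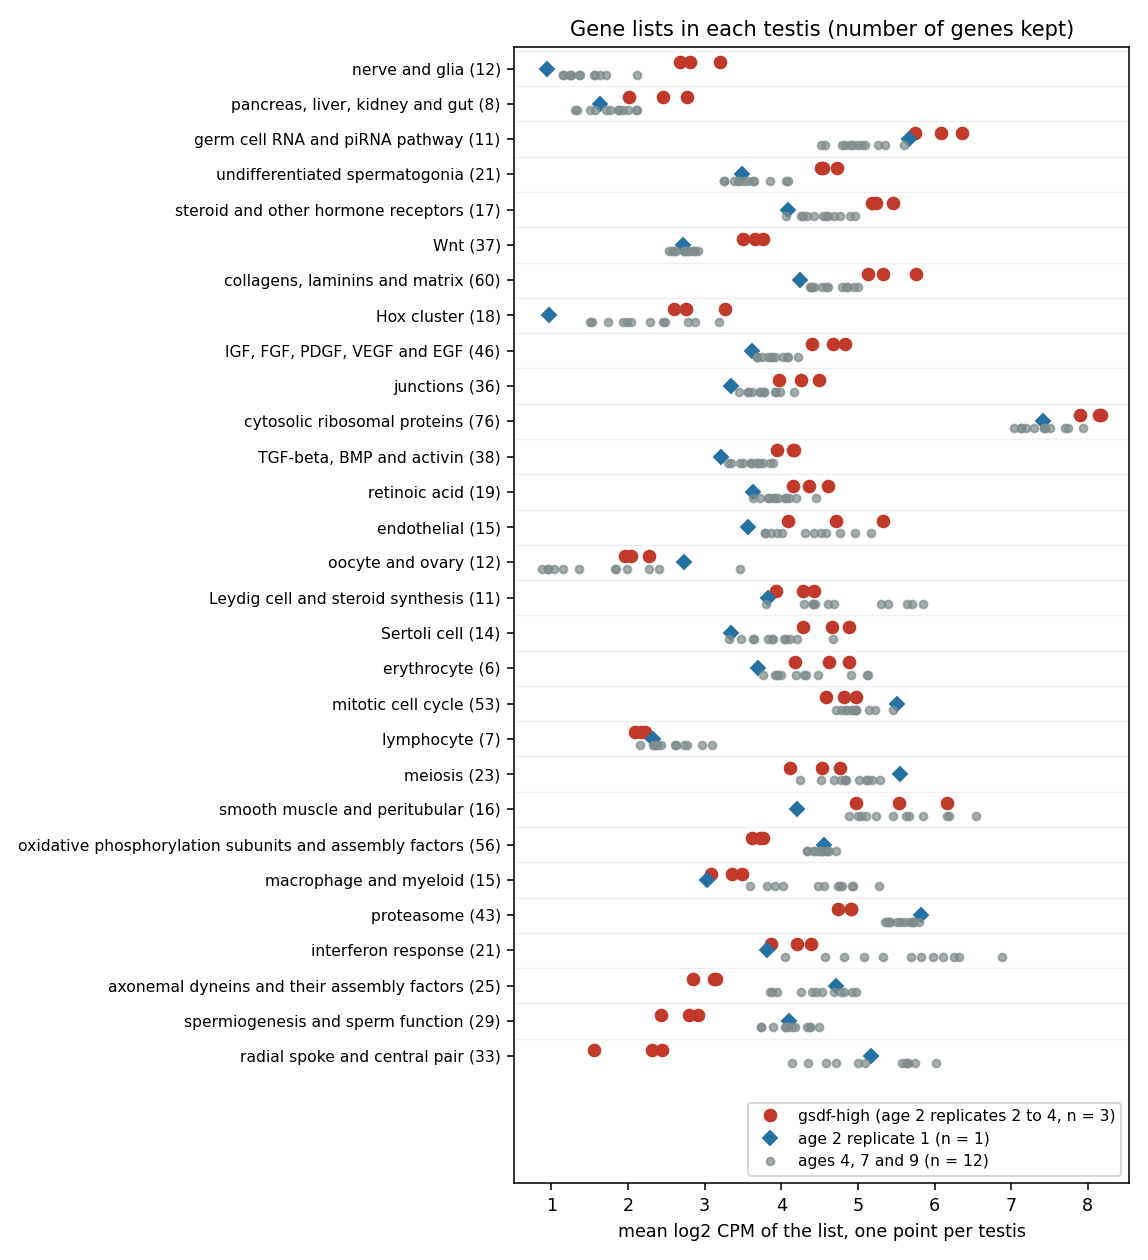
Mean log2 CPM of the genes kept in each of 29 lists (number of genes in brackets), 1 point per testis, with gsdf-high testes (n = 3, red) above age 2 replicate 1 (blue diamond) and ages 4, 7 and 9 (n = 12, grey); lists are ordered by their median difference. Red points stand right of all others from nerve and glia to the collagen list, apart from the list of pancreas, liver, kidney and gut, and left of all others in the radial spoke, spermiogenesis, dynein, proteasome and oxidative phosphorylation lists.

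Transcript use within a gene differed for a minority. Of 1815 genes with several transcripts and at least 100 counts in each set, 100 (5.51%) had a transcript whose share of the gene did not overlap between gsdf-high testes and the others, 44 of them by 20 percentage points or more. For ssx2ipa, a centrosome protein, one of 6 transcripts held 97.8%, 96.9% and 94.1% of the counts in gsdf-high testes, against 20% to 73.7% in the others, on as few as 9 counts in a library. For cdip1, linked to cell death, one transcript held 61.4% ± 8.33 in gsdf-high testes and 13.2% ± 6.89 in the others (SD, n = 3 and n = 13). For pkp2, a desmosome protein, one transcript held 59.6% ± 6.48 in gsdf-high testes and 16.04% ± 3.84 in the others. Ttc9b, LOC128609832 and LOC128612213 had differences of 47.6, 44.2 and 41.7 percentage points. These shares rest only on fragments that could be assigned to a single transcript.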

How the data were processed

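The deposited files hold raw counts of fragments per transcript, 1 file per library, with 50072 transcripts and 5 summary lines, per the file contents as the authors deposited them. Total RNA was extracted and libraries made with kits named in the labels' protocols. The submitters' processing notes list STAR 2.7.5 (an aligner), HTSeq 0.11.1 (a read counter), FastQC 0.11.9 and MultiQC 1.10.1 (quality reports), Trimmomatic 0.39 (a trimmer) and edgeR 4.4.2. How they were run, on which genome build and with which strand setting is not given in the sources used here, so reads of a gene and its antisense partner cannot be told apart. The summary lines, which name no gene, held 65.2% to 76.2% of fragments and were left out. Fragments shared by overlapping genes or near-identical copies are among them, so counts of paralogs and overlapping genes are less certain. As counting was per transcript, fragments shared by transcripts of 1 gene can be among them too. A summed gene value can then rest on part of the gene and shift with transcript use. A gene listed at 0 in every library is therefore not shown to be silent.

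Counts were summed per gene symbol (26356 genes). Libraries with gsdf at or above 1000 CPM on this total formed the gsdf-high set. All other values are CPM with TMM factors (0.774 to 1.13), and log2 CPM with a prior count of 2, from edgeR 4.0.16 in R 4.3.3. Genes were kept by filterByExpr (minimum count 10, total 15, the 4 ages as groups), leaving 15978 without gsdf. Summaries used python 3.11.15, numpy 2.4.6 and pandas 2.3.3, and matplotlib 3.10.9 drew the plots. The counting of separated genes was tested on simulated data. No test was made between the sets, since gsdf selected them. Replicates are biological per the labels. Between libraries of 1 age the chi-square of their counts was at least 10.1 per degree of freedom, so none was treated as a duplicate; pairs of different ages were not compared.

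The sets and the 29 gene lists were chosen with earlier results of these data known. Named genes were the 12 separated genes with the largest difference in each direction with a symbol and at least 10 CPM in the higher set, 2 LOC genes in each direction, the 4 members with the largest absolute difference in each list, 6 genes by transcript share, and defining cell type markers. Others are marked where they appear or are the only separated members of a list on their side. In all, 17 kept genes stand in 2 lists, among them inha, cldn5a, pdgfra and pdgfrb, and count in both. Alternatives were plain CPM, DESeq2 1.42.0 size factors, upper quartile scaling, omission of ribosomal RNA and mitochondrial genes, other filters, a prior count of 0.5, gsdf thresholds of 500 and 2000 CPM, medians, transcripts, other limits on the difference and the omission of each library. Values of 2 named genes are not reported here.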

Additional observations from a re-analysis of the deposited data

Results flagged for a closer look

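In groups of 4 libraries of 1 age, 144 sets of values (list means and library measures) were screened for a single library that stood far from the other 3. Chance alone marks about 1 in 20 groups, and the 6 that were marked are no more than that. The groups share libraries and some genes, so this comparison is only rough. In 4 of the 6 marked groups the library that stood apart was age 2 replicate 1, the age 2 testis with low gsdf. At age 2 this repeats the split by gsdf, so these 4 add no result of their own. Its mean log2 CPM of the axonemal dynein list was 4.71, against 2.85 to 3.15 in the gsdf-high testes of that age. For oxidative phosphorylation genes it was 4.55, against 3.62 to 3.77, and for proteasome genes 5.82, against 4.74 to 4.91. For undifferentiated spermatogonia it was 3.49, against 4.52 to 4.72. At age 7 the erythrocyte list stood at 5.12 in replicate 3, against 3.77 to 3.95 in the other 3 libraries. At age 9 the share of fragments that fell on more than 1 feature was 25.8% (25.75%) in replicate 1, against 27.8% to 27.9% in the other 3.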

How the results depend on the processing

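With gsdf-high libraries set at 2000 CPM or more (age 2 replicates 2 and 4, with replicate 3 moved to the other set), 536 genes were separated and higher and 805 separated and lower, against 2232 and 1919. With a limit of 2 on the log2 difference the counts were 886 and 918, as fewer genes reach it. Under the other alternatives both counts stayed within 1.5 times. Leaving out 1 library at a time gave 2226 to 2565 higher and 1908 to 2143 lower genes. Scaling moved the balance: upper quartile scaling gave 2422 higher and 1776 lower genes, and DESeq2 size factors 2112 and 2006. Of 156 differences of named genes none of those separated changed sign; 4 that overlapped (sycp3, tie1, rhag and cdh5) did in some setting. A prior count of 0.5 gave -6.04 in place of -5.00 for brwd3 and -4.50 in place of -2.97 for spata18. Without age 2 replicate 4, wnt9b differed by 5.58, enkur by -4.63 and meig1 by -4.49. Of 783 list medians, 9 values in 3 lists (lymphocyte, mitotic cell cycle, and pancreas, liver, kidney and gut) took the other sign; the last of these had a median of 1.22, and -1.06 where 5 CPM in 3 libraries were required. With that filter the radial spoke and central pair median was -3.88, and with no filter the piRNA median was 0.23. Those 2 filters change which genes are counted. No paired analysis was made, since the labels name no pairs of libraries. Genes with few counts, such as hsd17b1 and sgo2, are limited by depth.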
